A study of Mus musculus with 26 samples.

Results

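Messenger RNA levels of DN3 thymocytes were compared with those of granulocyte-macrophage progenitors (GMP) of the bone marrow. These are the last lymphoid and the last myeloid stage of a series of 8 blood cell populations. Samples were chosen by the population named in their titles, which gave 3 DN3 arrays and 3 GMP arrays, 6 of the 26 Affymetrix arrays. The labels give all donors as male C57/Bl6 mice aged 2 months, with no treatment or engineered allele named. Thymocytes gave DN3 and bone marrow gave GMP, so that organ and lineage cannot be told apart, and the labels name no sorting markers. The labels do not say whether replicates came from separate mice, and p-values then cover only the spread between samples as deposited. That spread was pooled within all 8 populations over the 26 arrays, not taken from the DN3 and GMP arrays alone. A gene that varied in another population can thus have a large SE although its DN3 and GMP arrays lie close together. Levels are log2 signals as deposited, and differences are DN3 minus GMP on that log2 scale, so that a difference of 1 is a 2-fold change.

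DN3 cells are immature thymocytes that carry neither CD4 nor CD8. At this stage the T cell receptor beta locus is recombined, and cells that make a working beta chain pair it with the invariant pre-T alpha chain and go on. Notch signals from the thymic stroma drive the T lineage programme that precedes this step. GMP are marrow cells that give rise to neutrophils, monocytes and their relatives. Under PU.1 and C/EBP factors they make the proteases and myeloperoxidase that fill the primary granules of neutrophils.

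Of 18193 genes, each read from its brightest probe set, 6717 (36.9%) passed limma's test at a Benjamini-Hochberg adjusted p under 0.05. In DN3, 3176 (17.5%) were higher and 3541 (19.5%) were lower. Which count is the larger turned without DN3 replicate 3 (3543 higher, 3176 lower) and after quantile normalization (3500 higher, 3288 lower). The words rose, fell, higher and lower are used of named genes only where this threshold was passed, and say what DN3 did relative to GMP. The arrays of both groups did not overlap for 7970 genes (43.8%). A difference beyond 5 log2 units was found for 219 genes that rose and 287 that fell. Signals within 1 log2 unit of the table's lowest value, 2.17, are called near the floor. On 470 of the genes that rose, all 3 GMP arrays were near the floor, and on 678 of those that fell, all 3 DN3 arrays were. For such genes the fold is a lower bound and is written as at least that fold. Of the calls, 266 were on genes near the floor in both groups, where false calls were in excess on simulated data. The median difference over all genes was 0.

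**Figure D1:**
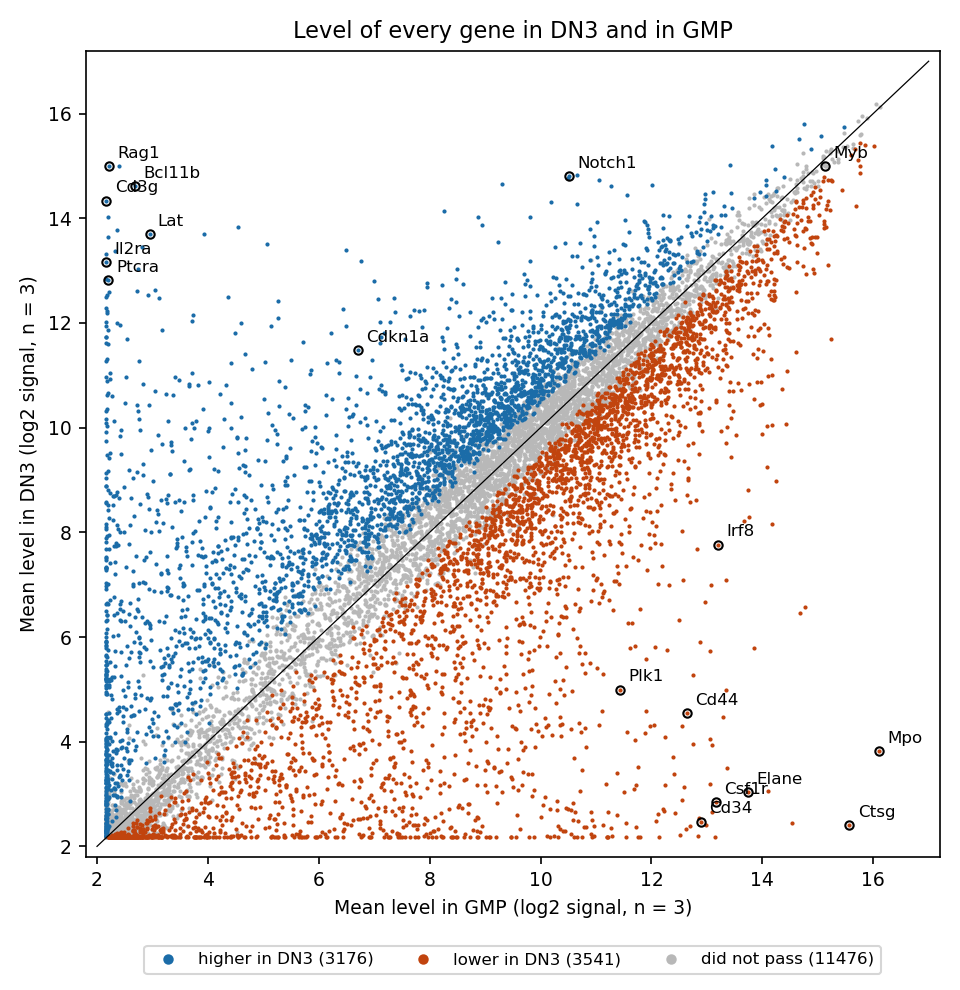
Mean log2 signal of each of 18193 genes in DN3 (vertical axis, n = 3) and in GMP (horizontal axis, n = 3), with 3176 genes higher in DN3 in blue, 3541 lower in orange and the rest in grey. The line marks equal signal. Rag1, Cd3g and Ptcra sit at the left edge, where GMP arrays are near the floor, and Ctsg, Elane and Cd34 at the bottom, where DN3 arrays are.

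Arrays within a group correlated at 0.992 to 0.997 in DN3 and at 0.997 to 0.998 in GMP over all genes, and arrays of different groups at 0.904 to 0.915. The groups also differed in control probe sets. The poly-A spike-in controls averaged 12.57, 12.87 and 10.84 on the DN3 arrays, against 8.17, 8.12 and 7.85 on the GMP arrays. The actin 3′ minus 5′ signal was 3.08, 3.33 and 2.05 on the DN3 arrays, against 1.47, 1.47 and 1.52 on the GMP arrays. Neither measure overlapped between the groups. Calls were therefore also counted with a block for the first measure. For the second, a covariate took the mean of the actin and Gapdh 3′ minus 5′ signals. DN3 replicate 3 stood apart from the other DN3 arrays: its hybridization controls averaged 10.19, against 11.14 and 11.36 on the other DN3 arrays and 11.19 to 11.26 on the GMP arrays. Results that it moves by over 1.5-fold are given with and without it. With the arrays clustered by their spike-in signals and the cluster taken as a random block, 3176 genes passed, 1376 higher and 1800 lower, and all 3176 were among the 6717. No cluster held both DN3 and GMP: the GMP arrays formed one, DN3 replicates 1 and 2 another, and DN3 replicate 3 fell with CMP replicates 2 and 3. For this comparison the block is thus nested in the groups, and spike-in cluster and population cannot be told apart between DN3 and GMP. Genes named here that lost their call with this block were Adam10, Bcl2, Bcl2l11, Ccnd3, Cd79b, Cdk6, Cdkn2c, Ctsl, Dnmt3a, Dnmt3b, Egr1, Erg, Flt3, Fos, Id2, Il15ra, Jag1, Notch2, Nr4a1, Pmaip1, Psen2, Rora, Runx3, Tet1, Tslp, Uhrf1 and Urod. With the 3′ minus 5′ signal as a covariate, Bcl2, Bcl2l11, Id2, Ldhb and Pmaip1 lost theirs. On 22 of the 26 arrays, all DN3 and GMP arrays among them, signals fitted the label male, with Xist, the transcript of the inactive X, at most 4.45 and the Y-linked Eif2s3y at least 11.28. On 4 arrays they went against it: DN1 replicate 3 and DN2 replicate 2 had Xist at 13.59 and 12.99 and Eif2s3y at 2.62 and 2.17, and DN1 replicate 1 and DN2 replicate 3 had both, with Xist at 12.21 and 6.30. These arrays bear on DN3 minus GMP only through the estimate of the spread, and 6807 genes passed without them. All 6 markers fixed for DN3 (Ptcra, Il2ra, Rag1, Cd3e, Notch3 and Dtx1) rose, and the 5 measured markers of GMP (Elane, Mpo, Prtn3, Ctsg and Csf3r) fell, with no overlap between arrays. In bulk RNA, fewer cells of a type and less RNA per cell cannot be told apart.

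The pre-T cell receptor and its CD3 chains were present in DN3 and near the floor in GMP. All 5 measured members of this list rose, against 17.5% of all genes, and their median difference was 10.61. Ptcra, the pre-T alpha chain that pairs with a new beta chain, was at 12.87, 13.25 and 12.32 on the DN3 arrays, against 2.20 on all 3 GMP arrays, at least 1567-fold higher (difference 10.61, SE 0.25, adjusted p = 1.77e-17). Cd3g, a signalling chain of the receptor, was at 14.45, 14.48 and 14.06 on the DN3 arrays, against 2.17 on all 3 GMP arrays, at least 4582-fold higher (difference 12.16, SE 0.57, adjusted p = 1.04e-12). On every DN3 array both stood over 10 log2 units above every GMP array. A related chain, Cd3d, was at 13.29, 13.47 and 13.21 on the DN3 arrays, against 2.17 on all 3 GMP arrays (difference 11.15, SE 1.09, adjusted p = 6.49e-08). The SD of Cd3d was 2.93 in DN1 and 2.84 in DN2, which widens this pooled SE. Cd3e, which pairs with either chain, was at 9.55, 9.75 and 9.24 on the DN3 arrays, against 2.20, 2.18 and 2.34 on the GMP arrays (difference 7.27, SE 0.23, adjusted p = 2.12e-15). The zeta chain Cd247 also rose (8.53, SE 0.35), and no array of either group overlapped for any of the 5.

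Promoter sequences show the DN3 side of the comparison, for a receptor chain, a CD3 chain and a recombinase gene. Each runs 5′ to 3′ on the gene's strand from 250 bases before to 50 after the RefSeq start on GRCm38.p6. Capitals mark matches on either strand to 7 motifs: E-box CANCTG, Runx TGTGGT, Myb AACNG, PU.1 GAGGAA, C/EBP TTGCNNAA, Rbpj TGGGAA and the GATA motif AGATAA. Ptcra lies at chr17:46763663-46763962, minus strand, Cd3g at chr9:44980382-44980681, minus strand and Rag1 at chr2:101649483-101649782, minus strand.
Ptcra: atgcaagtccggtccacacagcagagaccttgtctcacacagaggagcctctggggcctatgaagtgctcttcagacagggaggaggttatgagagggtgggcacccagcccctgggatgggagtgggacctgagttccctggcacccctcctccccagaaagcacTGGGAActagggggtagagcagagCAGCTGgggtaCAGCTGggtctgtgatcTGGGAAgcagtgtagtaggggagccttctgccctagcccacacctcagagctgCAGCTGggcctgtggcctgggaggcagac
Cd3g: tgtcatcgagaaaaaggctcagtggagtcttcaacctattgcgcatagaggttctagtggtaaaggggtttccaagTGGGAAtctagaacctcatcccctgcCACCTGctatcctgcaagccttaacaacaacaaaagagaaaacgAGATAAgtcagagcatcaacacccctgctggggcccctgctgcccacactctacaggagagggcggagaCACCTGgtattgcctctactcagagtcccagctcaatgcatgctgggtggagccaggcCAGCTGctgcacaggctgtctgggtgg
Rag1: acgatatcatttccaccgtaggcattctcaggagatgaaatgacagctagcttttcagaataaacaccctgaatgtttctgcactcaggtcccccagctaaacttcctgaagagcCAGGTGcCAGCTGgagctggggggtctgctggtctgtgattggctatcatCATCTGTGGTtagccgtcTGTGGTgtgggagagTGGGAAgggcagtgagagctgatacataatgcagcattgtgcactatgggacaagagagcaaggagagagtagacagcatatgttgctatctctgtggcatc
Each of these windows holds 3 E-box matches, the letters bound by E proteins such as Tcf3 and Tcf12. Of all 32851 windows in the table, 51.4% hold at least 1. Rbpj letters, bound by the partner of cleaved Notch, occur 2 times in Ptcra and 1 time each in Cd3g and Rag1, and in 25.6% of all windows. Rag1 holds 2 Runx matches, the first of which overlaps an E-box in the run CATCTGTGGT, and Cd3g holds 1 GATA match. Runx letters occur in 16.8% of all windows and GATA letters in 11.2%. No PU.1, Myb or C/EBP letters were found in these 3 windows, and a match is a description of letters, not a bound site.

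Recombination genes were higher in DN3, with 8 of 11 measured members rising and 2 falling (background 17.5% and 19.5%). Rag1, a subunit of the recombinase that cuts receptor gene segments, was at 15.37, 15.39 and 14.23 on the DN3 arrays, against 2.22, 2.25 and 2.17 on the GMP arrays, at least 7050-fold higher (difference 12.78, SE 0.43, adjusted p = 6.18e-15). Its partner Rag2 was at 11.59, 10.88 and 9.96 on the DN3 arrays, against 4.28, 4.35 and 4.35 on the GMP arrays, 89.6-fold higher (difference 6.48, SE 0.42, adjusted p = 1.38e-10). Dntt, the polymerase that adds untemplated bases at the joints, was at 13.79, 13.81 and 13.31 on the DN3 arrays, against 2.22, 2.17 and 2.19 on the GMP arrays, at least 2787-fold higher (difference 11.44, SE 0.23, adjusted p = 2.47e-18). All 3 genes were high on every DN3 array and low on every GMP array. End joining genes followed with smaller differences: the ligase Lig4 (5.92, SE 0.30), the Ku subunits Xrcc6 (2.91, SE 0.27) and Xrcc5 (2.44, SE 0.31), the kinase Prkdc (1.56, SE 0.24) and Xrcc4 (1.37, SE 0.19) all rose. The gap-filling polymerases Poll (-2.93, SE 0.41) and Polm (-0.58, SE 0.08) fell, Polm with both groups near the floor. Variable segments of the receptor loci were among the largest rises over all genes, with Trbv1 (12.60, SE 0.52) and Trgv1 (11.42, SE 0.89).

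Of 24 measured kinases and adaptors of antigen receptor signalling, 18 rose and 2 fell (75% and 8.33%, against 17.5% and 19.5% of all genes). Their median difference was 3.47. Lat, the membrane scaffold on which the T cell receptor signal is assembled, was at 13.83, 13.59 and 13.67 on the DN3 arrays, against 2.86, 2.85 and 3.13 on the GMP arrays (difference 10.75, SE 0.22, adjusted p = 2.54e-18). Themis, which tunes receptor signals in thymocytes, rose by 9.85, and the adaptors Skap1 and Trat1 rose by 9.41 and 8.47. Rasgrp1, which links the receptor to Ras, rose by 8.80. The B cell and myeloid kinase Btk fell (-6.93, SE 0.23), as did Themis2 (-1.87, SE 0.23), a relative of Themis made in B cells and macrophages.

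Transcription factors of the T lineage rose in 17 of 20 measured cases and fell in 2 (85% and 10%, against 17.5% and 19.5% of all genes). Bcl11b, needed for T lineage commitment, was at 14.52, 14.75 and 14.58 on the DN3 arrays, against 2.63, 2.56 and 2.86 on the GMP arrays, at least 3918-fold higher (difference 11.94, SE 0.95, adjusted p = 3.37e-09). Every DN3 array was high and every GMP array near the floor. Gata3 (8.44, SE 0.31) and Lef1 (9.11, SE 0.15), both required for early thymocytes, rose, as did Ets1 (5.16, SE 0.46) and the Notch-induced repressor Hes1 (9.16, SE 0.32). Among E proteins and their inhibitors, Tcf3 (3.01, SE 0.34), Tcf12 (1.39, SE 0.18) and Id3 (5.71, SE 0.30) rose, and Id2 also rose (1.01, SE 0.31), a call lost without DN3 replicate 1 or without DN3 replicate 2. The Runx family was split. Runx1 was at 12.86, 12.91 and 12.77 on the DN3 arrays, against 10.81, 11.18 and 10.82 on the GMP arrays (difference 1.91, SE 0.24, adjusted p = 2.18e-06), and Runx3 was at 7.19, 7.77 and 8.68 on the DN3 arrays, against 10.77, 10.55 and 10.36 on the GMP arrays (difference -2.68, SE 0.43, adjusted p = 4.1e-05). Runx1 was higher on every DN3 array and Runx3 lower, without overlap. Zbtb16, which encodes the innate lymphoid factor PLZF, fell (-3.95, SE 0.45).

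Notch pathway genes and targets rose in 14 of 29 measured cases and fell in 4 (48.3% and 13.8%, against 17.5% and 19.5% of all genes). With the spike-in cluster as a block, 11 rose and 0 fell. The receptor Notch1 was at 14.87, 15.05 and 14.47 on the DN3 arrays, against 10.54, 10.67 and 10.32 on the GMP arrays (difference 4.29, SE 0.28, adjusted p = 1.83e-10). Notch3, a receptor that is also a Notch target in thymocytes, was at 13.06, 13.36 and 11.37 on the DN3 arrays, against 2.23, 2.23 and 2.18 on the GMP arrays, at least 1337-fold higher (difference 10.39, SE 0.38, adjusted p = 2.12e-14). Dtx1, a Notch target that encodes a ubiquitin ligase, was at 12.55, 13.27 and 11.79 on the DN3 arrays, against 3.05, 2.79 and 2.94 on the GMP arrays (difference 9.61, SE 0.27, adjusted p = 3.88e-16). All 3 genes were higher on every DN3 array. Notch3 was lowest on DN3 replicate 3, and its difference was 11.00 without it. The 4 that fell were the receptor Notch2 (-1.20, SE 0.22), the ligand Jag1 (-0.98, SE 0.31), the protease Adam10 (-0.69, SE 0.16) and the presenilin Psen2 (-1.27, SE 0.30). The Jag1 call was lost without GMP replicate 3, on the mean of its probe sets (-0.17) and with values below 5 set to 5.

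Among T cell surface proteins, 11 of 22 measured genes rose and 3 fell (50% and 13.6%, against 17.5% and 19.5% of all genes). Il2ra, the CD25 chain used to sort DN2 and DN3 cells, was at 13.31, 13.42 and 12.76 on the DN3 arrays, against 2.17 on all 3 GMP arrays, at least 2037-fold higher (difference 10.99, SE 0.32, adjusted p = 6.3e-16). Thy1 (10.63, SE 0.45), Ly6d (10.05, SE 0.19), Ctla4 (8.70, SE 0.40) and Cd96 (7.35, SE 0.31) were also higher. Cd44, an adhesion receptor lost as thymocytes reach the DN3 stage, was at 3.87, 4.42 and 5.33 on the DN3 arrays, against 12.71, 12.61 and 12.61 on the GMP arrays, 274-fold lower (difference -8.10, SE 0.26, adjusted p = 3.74e-15). Cd69 (-4.06, SE 0.55) and Cd52 (-3.95, SE 0.44) fell. Transcripts of the later coreceptors were near the floor in both groups for Cd4 and Cd8b1, and Cd8a did not pass (0.08, SE 0.21).

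Of 15 lymphoid cytokine receptors and ligands, 4 rose and 4 fell (26.7% each way, against 17.5% and 19.5% of all genes). Il7r, the interleukin 7 receptor chain that early thymocytes depend on, was at 12.38, 12.96 and 12.51 on the DN3 arrays, against 2.83, 2.77 and 2.56 on the GMP arrays, at least 957-fold higher (difference 9.90, SE 0.71, adjusted p = 7.1e-10). Both transforming growth factor beta receptor chains rose, Tgfbr1 (2.32, SE 0.28) and Tgfbr2 (2.85, SE 0.17). Il4ra (-2.97, SE 0.35), Il15ra (-1.92, SE 0.42), the cytokine Tslp (-1.18, SE 0.30) and Flt3 (-1.33, SE 0.40) fell. The Flt3 call was lost without GMP replicate 3. Flt3 was dim in both groups, at a mean of 3.57 in DN3 and 4.90 in GMP. With values below 5 set to 5, Flt3 (-0.16) and Tslp (-0.09) did not pass. Of 19 homing genes, 4 rose and 6 fell (21.1% and 31.6%, against 17.5% and 19.5% of all genes). The share of homing genes that rose was thus close to that of all genes. Ccr9, the receptor for the thymic chemokine CCL25, rose (9.54, SE 0.55) with the integrin Itgae (4.05, SE 0.57), whose difference was 4.92 without DN3 replicate 3. The monocyte receptor Ccr2 (-5.83, SE 0.27), Ccr1 (-3.35, SE 0.09), Cx3cr1 (-3.33, SE 0.31) and the integrin Itgb7 (-3.63, SE 0.35) fell.

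Other large rises lay outside the T lineage lists. Gbp8, a guanylate-binding protein, rose by 11.81, and the adhesion protein Mpzl2 by 11.06. Gzma, the granzyme A protease known from killer cells, was at 13.15, 12.59 and 12.75 on the DN3 arrays, against 2.17 on all 3 GMP arrays (difference 10.66, SE 0.75, adjusted p = 4.83e-10). It was high on every DN3 array and near the floor on every GMP array.

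**Figure D2:**
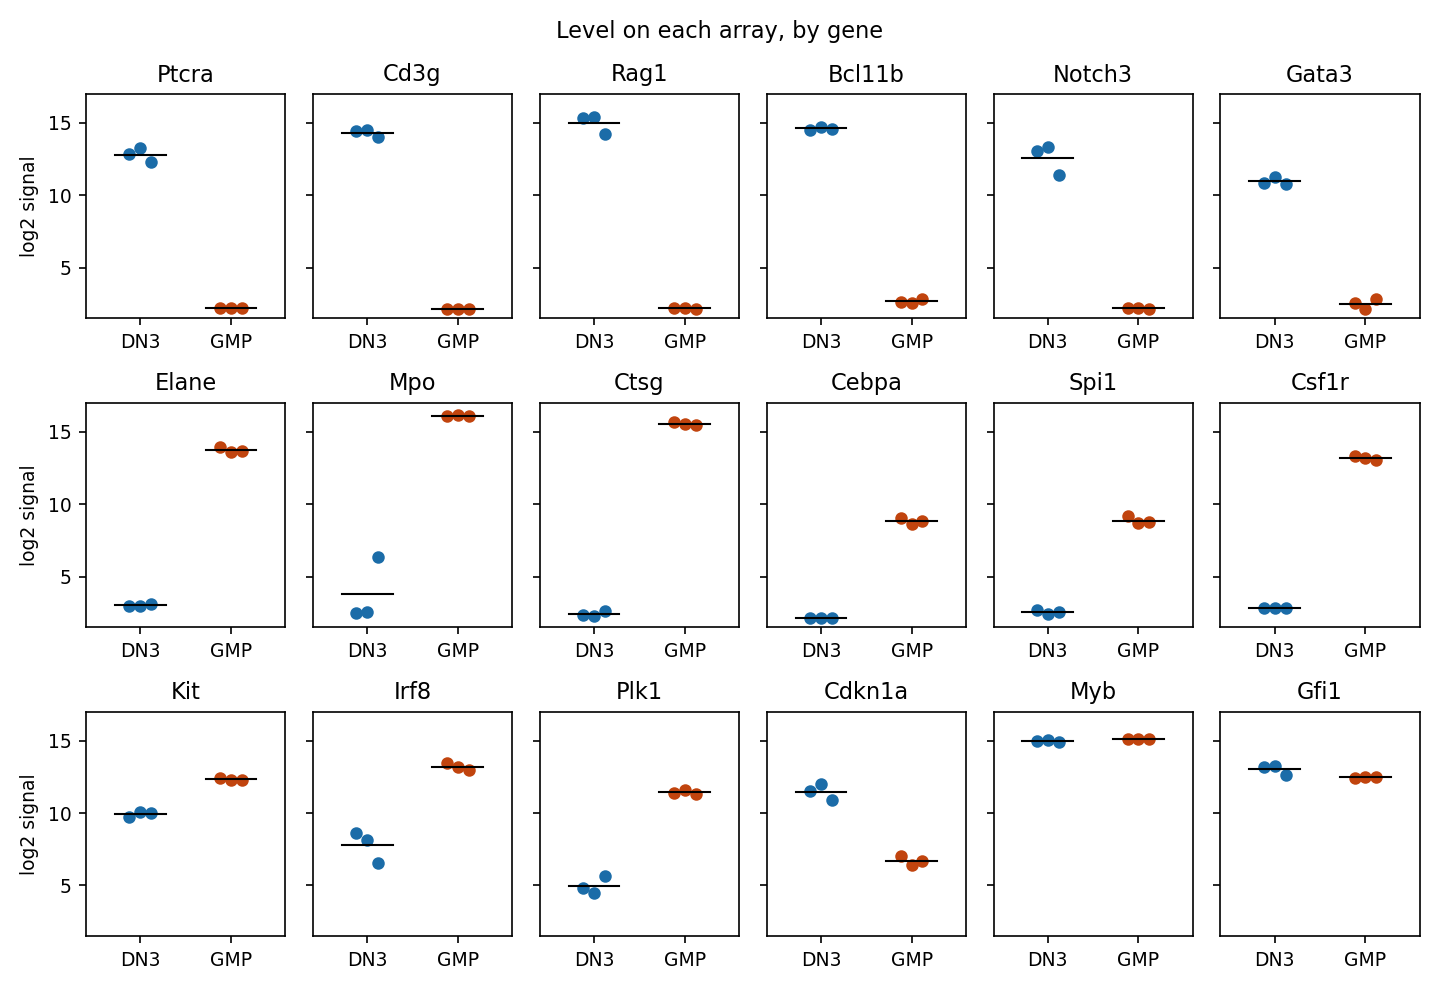
Log2 signal on each array for 18 genes, with DN3 on the left and GMP on the right of each panel, points for arrays (n = 3 each) and bars for the mean. The top row shows T lineage genes, the middle row myeloid genes and the bottom row genes present in both or changed in the cell cycle. Mpo reads 6.36 on DN3 replicate 3 and under 2.6 on the other DN3 arrays.

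Primary granule genes showed the reverse. Of 18 measured members, 17 fell (94.4%, against 19.5% of all genes) and 0 rose, with a median difference of -3.68. Ctsg, the granule protease cathepsin G and the largest fall over all genes that the naming rule allowed, was at 2.35, 2.28 and 2.59 on the DN3 arrays, against 15.68, 15.54 and 15.49 on the GMP arrays, at least 9170-fold lower (difference -13.16, SE 0.32, adjusted p = 2.97e-17). Prtn3, proteinase 3, was at 2.41, 2.41 and 2.54 on the DN3 arrays, against 14.52, 14.61 and 14.49 on the GMP arrays, at least 4358-fold lower (difference -12.09, SE 0.27, adjusted p = 8.47e-18). Elane, neutrophil elastase, was at 2.98, 2.99 and 3.13 on the DN3 arrays, against 13.93, 13.62 and 13.70 on the GMP arrays, at least 1677-fold lower (difference -10.71, SE 0.77, adjusted p = 6.24e-10). On all 3 genes every DN3 array lay near the floor. Mpo, myeloperoxidase, was at 2.52, 2.59 and 6.36 on the DN3 arrays, against 16.12, 16.13 and 16.08 on the GMP arrays (difference -12.29, SE 0.61, adjusted p = 2.24e-12). Its level on DN3 replicate 3 was well above that on the other DN3 arrays, and the difference was -13.56 without that array. The eosinophil granule protein Prg2 (-10.97, SE 0.42) and the membrane protein Ms4a3 (-11.04, SE 0.54) also fell.

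The GMP side is shown by the promoters of 3 granule genes, in the same window and with the same marks. Elane lies at chr10:79886062-79886361, plus strand, Prtn3 at chr10:79879417-79879716, plus strand and Mpo at chr11:87793534-87793833, plus strand.
Elane: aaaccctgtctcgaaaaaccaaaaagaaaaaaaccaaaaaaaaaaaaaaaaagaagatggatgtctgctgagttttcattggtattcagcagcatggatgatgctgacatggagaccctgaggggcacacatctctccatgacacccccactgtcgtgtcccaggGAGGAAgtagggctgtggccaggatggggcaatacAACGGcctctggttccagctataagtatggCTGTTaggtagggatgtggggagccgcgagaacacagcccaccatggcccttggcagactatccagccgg
Prtn3: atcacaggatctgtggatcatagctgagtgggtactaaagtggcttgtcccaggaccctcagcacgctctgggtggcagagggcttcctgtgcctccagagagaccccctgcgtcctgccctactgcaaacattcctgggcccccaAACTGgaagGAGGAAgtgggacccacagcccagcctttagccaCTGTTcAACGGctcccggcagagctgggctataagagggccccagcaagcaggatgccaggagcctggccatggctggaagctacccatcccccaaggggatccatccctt
Mpo: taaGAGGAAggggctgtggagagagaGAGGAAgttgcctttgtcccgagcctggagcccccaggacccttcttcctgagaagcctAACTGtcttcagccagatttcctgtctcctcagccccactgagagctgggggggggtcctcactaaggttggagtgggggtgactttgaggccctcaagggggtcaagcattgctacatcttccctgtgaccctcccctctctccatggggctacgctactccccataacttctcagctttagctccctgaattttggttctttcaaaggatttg
PU.1 letters occur 1 time in Elane, 1 time in Prtn3 and 2 times in Mpo, and in 28.3% of all windows. Myb letters occur 2, 3 and 1 times in the same order, and in 80.3% of all windows. C/EBP letters were found in none of the 6 windows printed and in 10.8% of all windows. E-box, Rbpj, Runx and GATA letters were found in none of these 3.

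Genes of later neutrophil granules fell in 16 of 17 measured cases (94.1%, against 19.5% of all genes), with a median difference of -5.77. The calprotectin chain S100a8 was at 3.64, 3.57 and 3.27 on the DN3 arrays, against 13.12, 13.39 and 13.59 on the GMP arrays (difference -9.87, SE 1.01, adjusted p = 1.1e-07). Haptoglobin, Hp, was at 2.17, 2.25 and 2.25 on the DN3 arrays, against 12.51, 12.56 and 12.47 on the GMP arrays (difference -10.29, SE 0.35, adjusted p = 6.82e-15). Neither gene's DN3 arrays reached any GMP array. Chil3 (-9.62, SE 1.07), Ngp (-8.15, SE 0.96) and Lcn2 (-8.00, SE 0.90), all proteins of secondary granules or neutrophil secretions, fell too. Padi4, a neutrophil enzyme that converts arginine to citrulline in histones, rose (3.16, SE 0.29). With the spike-in cluster as a block 12 members fell, and with the replicate block on only the 6 arrays 2 did.

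Of 19 genes of eosinophils, basophils and mast cells, 12 fell (63.2%, against 19.5% of all genes) and 0 rose. The list's mean signal per array was 2.80 to 3.02 in DN3 and 6.46 to 6.85 in GMP, with 13 members near the floor in DN3 and 7 in GMP. The histamine-making enzyme Hdc (-9.87, SE 0.58), eosinophil peroxidase Epx (-8.49, SE 0.20), the basophil protease Mcpt8 (-8.14, SE 0.33) and the eosinophil lectin Siglecf (-6.97, SE 0.34) fell. The basophil and mast cell receptor chain Ms4a2 fell too (-6.64, SE 0.31). The mast cell protease Cpa3 was at 9.13, 9.46 and 10.24 on the DN3 arrays, against 10.57, 10.29 and 10.30 on the GMP arrays, and did not pass (-0.77, SE 0.46). Of the 7 members near the floor in both groups, Cma1, Mcpt1 and Tpsb2 are also mast cell proteases. Ms4a2 and these 4 proteases were chosen after their values were seen. Cpa3 and Siglecf were also well above the floor in earlier thymocytes. On DN1 replicate 2 and DN2 replicate 1, Cpa3 was at 10.35 and 13.26, and Siglecf at 10.25 and 9.95. The part of eosinophils, basophils and mast cells in the GMP sort was not tested.

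Myeloid transcription factors fell in 17 of 30 measured cases (56.7%, against 19.5% of all genes) and rose in 5 (16.7%, close to the 17.5% of all genes). Cebpa, the C/EBP factor without which GMP do not form, was at 2.17 on all 3 DN3 arrays, against 9.07, 8.62 and 8.85 on the GMP arrays, at least 102-fold lower (difference -6.68, SE 0.30, adjusted p = 4.35e-13). Spi1, which encodes PU.1, was at 2.66, 2.45 and 2.54 on the DN3 arrays, against 9.17, 8.69 and 8.75 on the GMP arrays, at least 79.8-fold lower (difference -6.32, SE 0.34, adjusted p = 7.48e-12). DN3 arrays were near the floor for both. Irf8, a factor of monocytes and dendritic cells, was at 8.61, 8.15 and 6.53 on the DN3 arrays, against 13.45, 13.18 and 12.95 on the GMP arrays, 43.3-fold lower (difference -5.44, SE 0.37, adjusted p = 2.72e-10), and the difference was -4.82 without DN3 replicate 3. It stayed well above the floor in DN3, unlike Spi1 and Cebpa. Cebpb (-4.62, SE 0.45), Cebpd (-7.28, SE 0.43) and Tfec (-9.08, SE 0.34) fell, and Maf (5.17, SE 0.41) and Egr1 (4.33, SE 0.74) rose.

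Receptors for myeloid growth factors fell in 14 of 18 measured cases (77.8%, against 19.5% of all genes) and rose in 0. Csf1r, the receptor for macrophage colony-stimulating factor, was at 2.85, 2.83 and 2.83 on the DN3 arrays, against 13.30, 13.16 and 13.03 on the GMP arrays, at least 1283-fold lower (difference -10.33, SE 0.41, adjusted p = 8.1e-14). The granulocyte receptor Csf3r (-5.10, SE 0.21), the receptor chain Csf2ra (-3.50, SE 0.37) and the shared beta chains Csf2rb (-9.36, SE 0.23) and Csf2rb2 (-5.16, SE 0.40) fell. Kit, the receptor for stem cell factor, was at 9.72, 10.09 and 10.03 on the DN3 arrays, against 12.42, 12.26 and 12.29 on the GMP arrays (difference -2.38, SE 0.24, adjusted p = 1.25e-07). It was lower on every DN3 array, yet far from the floor.

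Effector genes of phagocytes fell with them. Of 11 genes of the NADPH oxidase and Fc receptors, 9 fell (81.8%, against 19.5% of all genes) and 0 rose. Those that fell included Cybb, the catalytic subunit of the oxidase (-9.10, SE 0.24), its cytosolic partner Ncf1 (-6.25, SE 0.37), and the Fc receptor Fcgr3 (-9.56, SE 0.23). The inhibitory receptor Fcgr2b fell (-6.33, SE 0.85), with a difference of -5.41 without DN3 replicate 3. Rac2, a GTPase of the oxidase that lymphocytes also use, did not pass (0.42, SE 0.29). Of 21 innate sensing genes, 14 fell (66.7%, against 19.5% of all genes) and 0 rose, and 8 fell with the spike-in cluster as a block. Ly86 (-8.56, SE 0.36), the fungal lectin Clec7a (-7.76, SE 0.43) and the inhibitor Irak3 (-7.14, SE 0.20) fell most. Of 25 lysosomal genes, 12 fell (48%, against 19.5% of all genes) and 4 rose (16%, close to the 17.5% of all genes). Cathepsins Ctsh (-10.58, SE 0.33), Ctss (-6.99, SE 0.38) and Ctsz (-3.36, SE 0.27) fell, and Ctsw (5.76, SE 0.41), a cathepsin of T and killer cells, rose with Ctso (2.16, SE 0.26) and Ctsl (1.18, SE 0.30). The Ctsl call was lost on the mean of its probe sets (0.58). Other large falls were Anxa3 (-10.63, SE 0.29), a calcium-dependent membrane binding protein, and Mpeg1 (-10.30, SE 0.61), a pore-forming protein of macrophages.

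Stem and early progenitor genes fell in 13 of 25 measured cases and rose in 5 (52% and 20%, against 19.5% and 17.5% of all genes). Cd34, a surface protein of marrow progenitors, was at 2.56, 2.17 and 2.69 on the DN3 arrays, against 12.91, 12.91 and 12.86 on the GMP arrays, at least 1368-fold lower (difference -10.42, SE 0.26, adjusted p = 5.27e-17). The LIM protein gene Lmo2 (-9.48, SE 0.21), its partner Lyl1 (-8.26, SE 0.30), the homeobox gene Hhex (-7.99, SE 0.38) and Tal1 (-5.07, SE 0.19) fell. Without DN3 replicate 3 the Hhex difference was -8.63. Mycn (6.09, SE 0.35), Slamf1 (3.87, SE 0.41), Angpt1 (1.75, SE 0.18) and Erg (1.19, SE 0.22) rose.

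Some transcription factors used in both lineages did not pass. Myb, needed for progenitors and for thymocyte development, lay between 14.92 and 15.07 on the DN3 arrays, against 15.14, 15.11 and 15.13 on the GMP arrays. Its difference was -0.13, with a 95% confidence interval from -0.32 to 0.06 (adjusted p = 0.335). Gfi1, a repressor required for neutrophils and for early T cells, was at 13.15, 13.27 and 12.64 on the DN3 arrays, against 12.41, 12.48 and 12.52 on the GMP arrays. The difference was 0.55, with a 95% confidence interval from -0.03 to 1.14 (adjusted p = 0.143), which leaves room for a rise of over 1 log2 unit. Neither gene passed, which does not show that the levels are equal.

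Cell cycle genes were lower in DN3 in nearly every measured case. Of 36 genes, 33 fell and 0 rose, with a median difference of -2.92, against 19.5% of all genes falling. Without DN3 replicate 3, 32 fell, and with the spike-in cluster as a block, 30 did. Plk1, a kinase of mitotic entry, was at 4.83, 4.50 and 5.66 on the DN3 arrays, against 11.41, 11.56 and 11.32 on the GMP arrays (difference -6.44, SE 0.35, adjusted p = 9.35e-12). Aurkb, a kinase of chromosome segregation, was at 7.49, 6.80 and 6.96 on the DN3 arrays, against 12.56, 12.53 and 12.63 on the GMP arrays (difference -5.49, SE 0.21, adjusted p = 6.24e-14). Ube2c, which drives cyclin destruction at mitosis, was at 6.12, 4.96 and 5.38 on the DN3 arrays, against 10.80, 10.89 and 10.55 on the GMP arrays (difference -5.26, SE 0.30, adjusted p = 1.78e-11). No DN3 array reached any GMP array for these genes. Ttk (-4.78, SE 0.29) and Kif11 (-4.63, SE 0.31), of the spindle checkpoint and the spindle, followed. Members that did not pass were the thymidylate synthase Tyms (-0.68, SE 0.44) and the replication helicase subunits Mcm2 (-0.28, SE 0.15) and Mcm6 (-0.34, SE 0.15), named because they are the only 3. The replication genes Pcna, Mcm7, Mcm4, Mcm3 and Mcm5, chosen after their values were seen, fell by 0.48, 0.37, 0.86, 0.92 and 1.15. Their single calls under the alternatives, the spike-in block among them, are not given here.

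**Figure D3:**
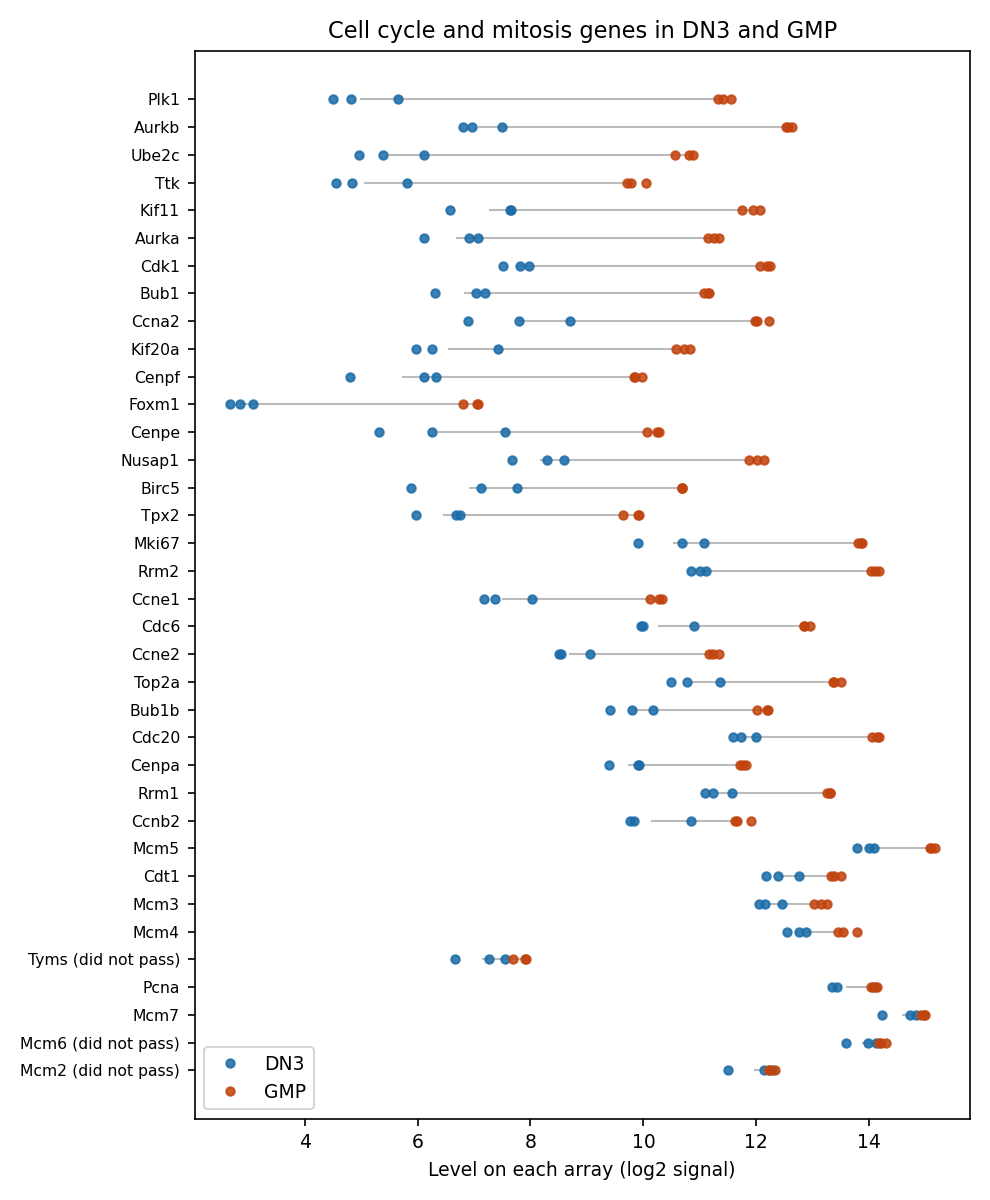
Log2 signal of 36 cell cycle and mitosis genes on the 3 DN3 arrays (blue) and the 3 GMP arrays (orange), ordered by the size of the difference, with a grey line between the means. The 33 that fell lie left of GMP by up to 6.44 log2 units, from the mitotic kinases at the top to the replication genes at the bottom.

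Of 16 D cyclins, CDKs and CDK inhibitors, 4 rose and 5 fell (25% and 31.2%, against 17.5% and 19.5% of all genes). Cdkn1a, which encodes the inhibitor p21, was at 11.53, 11.98 and 10.92 on the DN3 arrays, against 7.02, 6.42 and 6.69 on the GMP arrays (difference 4.77, SE 0.52, adjusted p = 2.87e-07). It was higher on every DN3 array. Cyclins of the D family moved apart: Ccnd2 (1.96, SE 0.24) and Ccnd3 (0.87, SE 0.21) rose, while Ccnd1 (-4.59, SE 0.44) fell. The kinase Cdk2 (-2.48, SE 0.25) and the inhibitor Cdkn2c (-2.38, SE 0.40) fell. Cdk6, a partner of D cyclins, rose (0.57, SE 0.14) on its brightest probe set, but its sign turned to -0.73 on the mean of its probe sets.

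Survival and death genes were mixed, with 8 of 20 rising and 7 falling (40% and 35%, against 17.5% and 19.5% of all genes), and 4 rising and 3 falling with the spike-in cluster as a block. The proapoptotic genes Bmf (6.32, SE 0.56) and Bcl2l11 (1.23, SE 0.35), which encode BH3-only proteins, rose, and Bid (-2.09, SE 0.20) and Pmaip1 (-2.85, SE 0.76), of the same class, fell. The Bcl2l11 call was lost without DN3 replicate 1. Bcl2, which protects cells from death, rose (1.60, SE 0.48), a call lost without DN3 replicate 1, without GMP replicate 1 and with the spike-in cluster as a block.

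Glycolysis and pentose phosphate genes fell in 15 of 22 measured cases and rose in 2 (68.2% and 9.09%, against 19.5% and 17.5% of all genes). Hexokinases Hk3 (-10.45, SE 0.30) and Hk2 (-3.58, SE 0.33), the mutase Pgam1 (-3.16, SE 0.17) and the platelet-type phosphofructokinase Pfkp (-2.53, SE 0.16) fell. The aldolases went opposite ways, Aldoc (4.26, SE 0.50) up and Aldoa (-2.41, SE 0.24) down, and Ldhb (1.58, SE 0.45) rose.

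Of 22 DNA methylation genes, 6 rose and 4 fell (27.3% and 18.2%, against 17.5% and 19.5% of all genes), and 1 rose and 3 fell with the spike-in cluster as a block. The new-methylation enzymes Dnmt3a (1.52, SE 0.28) and Dnmt3b (1.85, SE 0.33) rose. Dnmt1, which copies methylation at replication, did not pass, with a difference of -0.23, with a 95% confidence interval from -0.82 to 0.36 (adjusted p = 0.702). Tet2, an oxidase of methylated cytosine, did not pass either, with a difference of -0.36, with a 95% confidence interval from -0.89 to 0.18 (adjusted p = 0.34). Its relative Tet1 rose (1.53, SE 0.51), a call lost without DN3 replicate 1 or 2, without GMP replicate 1 or 2 and with the spike-in cluster as a block. Uhrf1, the partner of Dnmt1, rose by 0.91, a call lost on leaving out any 1 of the 6 arrays and on the mean of its probe sets (0.26). Zbtb4 (5.30, SE 0.56), a reader of methylated DNA, rose, and Gadd45a (-3.99, SE 0.38) and Gadd45b (-4.36, SE 0.63) fell.

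**Figure D4:**
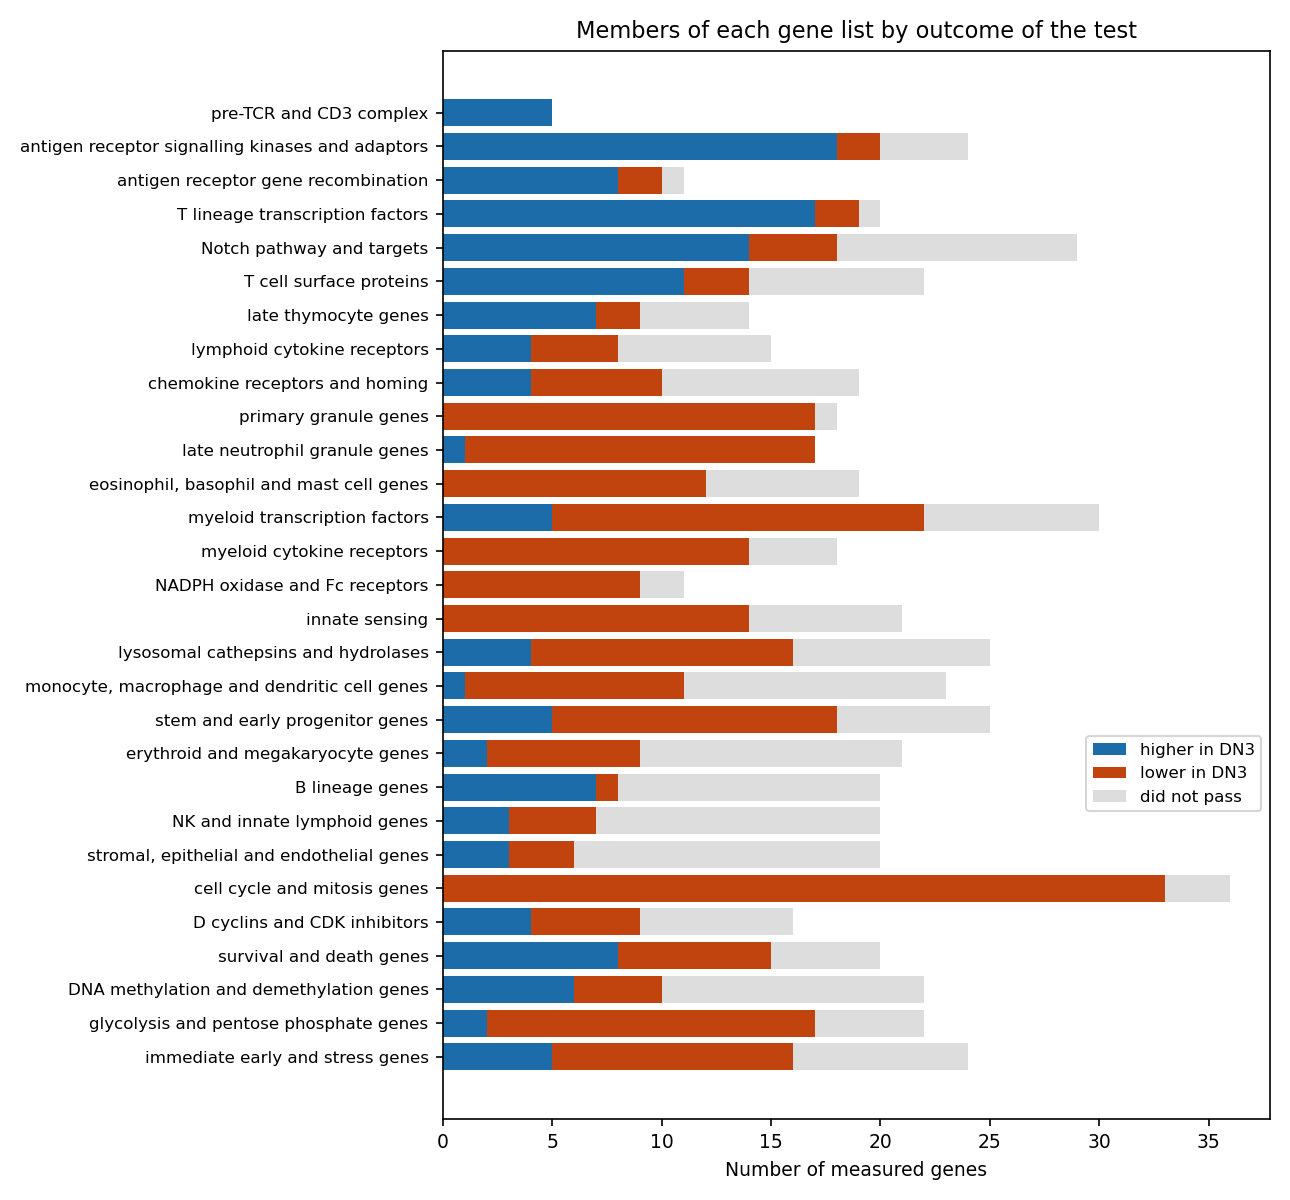
Number of measured members that were higher in DN3 (blue), lower in DN3 (orange) or did not pass (grey) in each of 29 gene lists. Among lists at the top, the pre-TCR, signalling, recombination and T lineage factor lists are mostly blue, while the Notch, surface protein and late thymocyte lists have 14 of 29, 11 of 22 and 7 of 14 members in blue. Orange covers 17 of 18 and 16 of 17 members of the granule lists, 9 of 11 of the oxidase list and 33 of 36 of the cell cycle list. Over all genes, 17.5% were higher and 19.5% lower.

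Immediate early and stress genes rose in 5 of 24 measured cases and fell in 11 (20.8% and 45.8%, against 17.5% and 19.5% of all genes). The share that rose was thus close to that of all genes. With the spike-in block, 1 rose and 4 fell. The list's mean signal was 6.86, 6.96 and 8.69 on the DN3 arrays, against 8.48, 8.59 and 8.38 on the GMP arrays. DN3 replicate 3 thus lay at the level of the GMP arrays and apart from the other DN3 arrays. Fos was at 4.19, 3.00 and 12.20 on the DN3 arrays, against 14.74, 14.74 and 14.58 on the GMP arrays. Its difference was -8.22, and -11.09 without DN3 replicate 3, and the call was lost on the 6 arrays alone and with the spike-in block. Klf4 was at 2.38, 2.31 and 7.60 on the DN3 arrays, against 12.33, 12.13 and 12.29 on the GMP arrays. Its difference was -8.15, and -9.90 without DN3 replicate 3. Egr1 (4.33, SE 0.74) and Nr4a1 (3.01, SE 0.90), which antigen receptor signals are known to induce, rose with the antiproliferative gene Btg2 (4.73, SE 0.61), Nr4a1 not without DN3 replicate 2. The part of cell handling in these values was not tested.

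Markers of other cells were examined in both groups. Of 14 late thymocyte genes, 7 rose and 2 fell (50% and 14.3%, against 17.5% and 19.5% of all genes). With the spike-in block, 3 rose and 1 fell. The risers included Arpp21 (10.29, SE 0.48) and Aqp11 (8.45, SE 0.32), while Cd4, Cd8b1, Ccr7 and S1pr1 were near the floor in both groups. The list's mean signal was 6.56 to 6.69 on the DN3 arrays and 4.57 to 4.61 on the GMP arrays. Of 20 B lineage genes, 7 rose and 1 fell (35% and 5%, against 17.5% and 19.5% of all genes). The mean signal was 5.25 to 5.43 on the DN3 arrays, against 3.54 to 3.58 on the GMP arrays. The risers Rag1 and Spib are also made in thymocytes, and Mzb1 (6.99, SE 0.36), Blk (3.81, SE 0.54) and Vpreb1 (3.10, SE 0.55) joined them, Blk with a difference of 3.20 without DN3 replicate 3. The B cell receptor chain Cd79b rose and stood above the floor in both groups, with means of 10.37 ± 0.50 in DN3 and 8.87 ± 0.14 in GMP (SD, n = 3 each), a call lost with the spike-in block. The heavy chain gene Ighm (-0.54, SE 0.28) and the adaptor Bank1 (-0.16, SE 0.27) did not pass, and Ighm had means of 11.81 ± 0.30 in DN3 and 12.35 ± 0.12 in GMP. Near the floor in both groups were 10 members, among them Pax5, Ebf1, Cd79a and Ms4a1. Of 20 killer cell and innate lymphoid genes, 3 rose and 4 fell (15% and 20%, close to the shares of all genes), with list means of 3.85 to 4.04 on the DN3 arrays and 3.60 to 3.68 on the GMP arrays. Gzma, described above, rose with the transcription factors Rora (3.15, SE 0.55) and Id2 (1.01, SE 0.31), the Id2 call being lost without DN3 replicate 1 or 2. The granule protein Nkg7 fell, with means of 10.69 ± 0.44 in DN3 and 13.46 ± 0.03 in GMP (-2.77, SE 0.24), as did the transcription factor Zbtb16 (-3.95, SE 0.45). Near the floor in both groups were 11 members, among them Eomes, Tbx21, Ncr1 and Prf1. Cd79b and the members named from these lists as near the floor or as not passing were chosen after their values were seen.

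Monocyte, macrophage and dendritic cell genes fell in 10 of 23 cases and rose in 1 (43.5% and 4.35%, against 19.5% and 17.5% of all genes). Their means were 3.32 to 3.65 on the DN3 arrays and 5.44 to 5.59 on the GMP arrays. F13a1 (-7.32, SE 0.44), Cd68 (-6.46, SE 0.44) and Adgre1 (-5.99, SE 0.25) fell, and 10 members were near the floor in both groups. Erythroid and megakaryocyte genes fell in 7 of 21 cases and rose in 2 (33.3% and 9.52%, against 19.5% and 17.5% of all genes). Their means were 4.38 to 4.57 on the DN3 arrays and 5.41 to 5.98 on the GMP arrays. Pf4 (-5.83, SE 0.36), Car2 (-5.01, SE 0.31) and Itga2b (-3.63, SE 0.41) fell, while Zfpm1 (3.39, SE 0.32), a partner of GATA factors, and Urod (0.73, SE 0.19), an enzyme of haem synthesis, rose. Gata1 was above the floor in both groups without passing, with means of 5.98 ± 0.60 in DN3 and 5.90 ± 0.12 in GMP, and Hba-a1, Epor and Klf1 were near it in both, all 4 chosen after their values were seen. Of 20 stromal genes, 3 rose and 3 fell (15% each way, against 17.5% and 19.5% of all genes), with means of 3.52 to 3.54 on the DN3 arrays and 3.41 to 3.48 on the GMP arrays. Epcam (8.44, SE 0.28), with another probe set moving the opposite way, and Pdgfrb (4.92, SE 0.25) rose and Vcam1 (-9.38, SE 0.90) fell. Col1a1, Krt14, Kdr and Cdh5, chosen after their values were seen, were near the floor in both. The part of such cells in either sort was not tested.

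Levels in the other 6 populations place both ends on their branches. Ptcra averaged 2.22 ± 0.02 in CLP, 2.32 ± 0.23 in DN1, 2.94 ± 0.43 in DN2 and 12.81 ± 0.47 in DN3 (SD, n = 3 each). Its high signal was thus reached at DN3 and not before. Cd3g averaged 3.39 ± 2.10 in DN1, 10.19 ± 0.26 in DN2 and 14.33 ± 0.23 in DN3. Il7r was high from CLP on, at 13.23 ± 0.06 in CLP and 12.62 ± 0.31 in DN3. Elane averaged 10.58 ± 1.01 in CMP and 13.75 ± 0.16 in GMP, against 3.44 ± 0.08 in CLP. Mpo was high in early lymphoid cells as well, at 14.15 ± 0.16 in CLP, 13.59 ± 0.05 in DN1, 11.31 ± 0.10 in DN2 and 3.82 ± 2.20 in DN3. Csf1r followed a like course, at 12.22 ± 0.30 in CLP, 12.43 ± 0.23 in DN1, 5.15 ± 0.92 in DN2 and 2.84 ± 0.01 in DN3. Cd34 averaged 10.91 ± 0.01 in DN2 and 2.47 ± 0.27 in DN3. The DN1 and DN2 means include the 4 arrays that went against their label. On the other array of each, DN1 replicate 2 and DN2 replicate 1, Ptcra was at 2.59 and 3.44, Cd3g at 2.17 and 10.27, Mpo at 13.53 and 11.31, and Csf1r at 12.62 and 6.20, and Cd34 was at 10.90 on DN2 replicate 1.

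**Figure D5:**
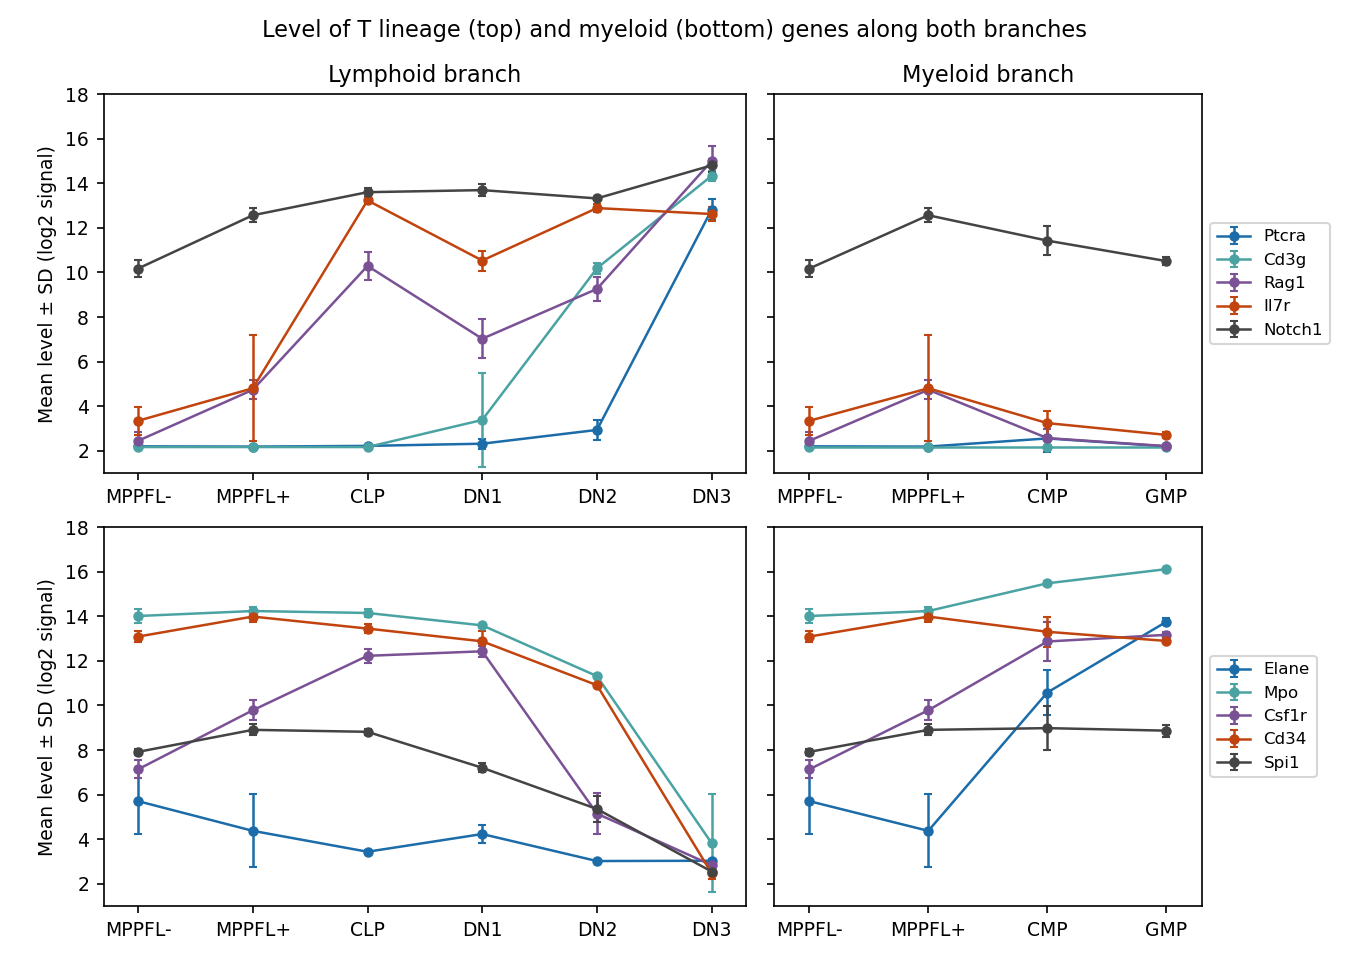
Mean log2 signal ± SD of 5 T lineage genes (top) and 5 genes headed myeloid (bottom), with n = 3 except n = 5 in MPPFL-. Populations of the lymphoid branch are on the left and those of the myeloid branch on the right. Of the bottom genes, Cd34 is a gene of progenitors of both branches. MPPFL- and MPPFL+ are drawn in both branches. Ptcra reaches 12.81 only in DN3, and Csf1r and Cd34 are above 10 in CLP and DN1 and under 3 in DN3.

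The difference between the ends of the branches was then set against the difference between CLP and CMP, the marrow progenitors that begin them. Samples titled CLP carry the name ALP in another label, and the comparisons share no array. Of 18193 genes, 5282 (29%) passed in the test of the difference of differences, 1770 (9.73%) higher and 3512 (19.3%) lower. After quantile normalization the split was 2495 higher and 2585 lower, so that the share of higher calls depends on the scaling. With the spike-in cluster as a block, in which CMP and DN3 arrays share a cluster, 1571 passed, 498 higher and 1073 lower. The median over the 9097 genes that are not dim was -0.37 as deposited and 0.01 after quantile normalization. For Il7r the second difference was close to the first: CLP minus CMP was 9.99, and the difference of differences was -0.08 (95% confidence interval from -2.20 to 2.03). Ets1 was alike, with CLP minus CMP at 4.94 and a difference of differences of 0.22 (95% confidence interval from -1.13 to 1.58). Neither passed, which does not show that both differences are equal.

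Other genes differed little between CLP and CMP and widely between DN3 and GMP. Cd3g had CLP minus CMP of 0.00 and a difference of differences of 12.16 (adjusted p = 5.13e-10), Bcl11b -0.49 and 12.42, and Trgv1 -0.96 and 12.39. Rag1 already differed between the early progenitors, with CLP minus CMP at 7.72 and a difference of differences of 5.06 (adjusted p = 1.7e-06). Trib2, which encodes a pseudokinase, turned its sign, with CLP minus CMP at -5.41 and a difference of differences of 11.79. Among genes that fell in DN3, Cd34 had CLP minus CMP of 0.14 and a difference of differences of -10.56, Csf1r -0.64 and -9.68, and Spi1 -0.16 and -6.15. Cd34 was high in the progenitors of both branches, with means of 13.45 in CLP and 13.30 in CMP. Elane was lower in CLP than in CMP by 7.14, and its difference of differences was -3.57 (adjusted p = 0.0163), a call lost with the spike-in block (-3.19, adjusted p = 0.62).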

How the data were processed

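The authors deposited a table of log2 signals for 45101 probe sets on 26 arrays. Per the labels' protocols, total RNA was extracted with Trizol and biotin-labelled cRNA was prepared by the array maker's protocol. How the values were normalized and summarized is not given in the sources used. Values were used as deposited. On the 6 arrays compared, 35.7% to 37.1% of probe sets read the lowest value, 2.17, and levels near it carry little information. The number of arrays limits precision.

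GEO's platform annotation gave 34945 probe sets a single gene, 932 several genes and 9160 no gene, and 64 were controls. A gene ID was found in the RefSeq gene table for 34741, and 0 symbols changed. Each of 18193 genes is read from its brightest probe set, by the mean of the 26 arrays. All 26 arrays were fitted with limma 3.58.1 in R 4.3.3 (lmFit, eBayes; with a term for population alone, which leaves 18 residual degrees of freedom). The contrasts were DN3 minus GMP and its difference from CLP minus CMP, two-sided, with Benjamini-Hochberg adjustment over all genes. The fit was tested on simulated data over repeated draws. It held its threshold where values were not clipped at the floor. The simulated arrays varied independently, whereas the fit with the spike-in block estimated a correlation of 0.65 within clusters. The simulation thus cannot show that the threshold holds on these data. With clipping, as in this table, false calls exceeded the threshold's share, and most of them were genes near the floor. Promoter windows are RefSeq's, and all 6 genes matched.

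The comparison, its 29 gene lists (604 different genes, 538 of them measured) and its alternatives were chosen with earlier results of these data known. List members lacking a single-gene probe set are not analysed here. Genes named are: up to 15 largest rises and 15 largest falls that passed without overlap of arrays and with a mean of at least 5.31 in the higher group, passing over unnamed transcripts; in each list up to 5 members that passed in each direction, or any member of a list of 15 or fewer; genes of interest fixed by name; and up to 10 of the largest differences of differences in each direction. Only part of these are named. Whether replicate numbers pair the samples is not known. Deviations from the group means of same-numbered arrays correlated at -0.0055, -0.072 and 0.060, and those of different-numbered arrays at -0.073 to 0.12. With 3 arrays a group, such values can neither show nor exclude a pairing. Alternatives changed the arrays fitted, the replicate number, normalization, low values, probe set choice, tested size, spike-in cluster, 3′ to 5′ signal, variance model and single arrays.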

Additional observations from a re-analysis of the deposited data

How the results depend on the processing

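Of 6717 genes that passed (3176 higher in DN3, 3541 lower), other settings kept the counts within 1.5 times, except the following. A test against 1 log2 unit passed 2599 (1244 higher, 1355 lower), the spike-in cluster as a random block passed 3176 (1376 higher, 1800 lower), and testing every probe set instead of genes passed 13541 probe sets (6980 higher, 6561 lower). The replicate number as a block in the fit to all arrays passed 6404, and with only the 6 DN3 and GMP arrays the replicate block passed 3808 (1662 higher, 2146 lower). Whether the numbers pair the samples is not known. Same-numbered arrays correlated at no more than 0.060, which cannot exclude it. Leaving out 1 array gave 2848 to 3543 higher and 3176 to 3520 lower. Without DN3 replicate 3 more genes were higher (3543) than lower (3176), and the same held after quantile normalization (3500 and 3288). The excess of lower genes thus depends on that array and on the scaling. Of 217 named genes that passed, 156 kept their call under every alternative run on them, 173 with the spike-in block, 174 with the replicate block on the 6 arrays and 217 after quantile normalization. Cdk6 reversed, to -0.73 on the mean of its probe sets, which adds a probe set of opposite sign. Ctsl, Jag1 and Uhrf1 lost their calls on that mean. Of 2409 genes that passed and had another probe set that passed, 245 had one of opposite sign. For the difference of differences (5282, of which 33.5% higher), quantile normalization gave 5080, of which 49.1% higher, the replicate block 4876, the spike-in block 1571 (498 higher, 1073 lower), and leaving out 1 array 1577 to 1985 higher and 3135 to 3543 lower. Leaving out the 4 arrays that go against their sex label, like that spike-in block an alternative chosen after seeing the data, passed 6807 (3231 higher, 3576 lower) and, for the difference of differences, 5296. The causes of the other changes were not tested. Signal near the floor limits what can be said of dim genes: 7312 genes were near it in both groups, and 266 of these passed.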
